A study of Homo sapiens with 8 samples.

Results

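The 173 genes described here are the solute carriers, whose symbols begin with SLC and a family number, together with the uncoupling proteins UCP1, UCP2 and UCP3. They were taken from the platform's gene annotation as every probe set with exactly 1 such symbol, and make up 174 of 8746 probe sets, or 173 of 7713 named genes. SLC22A17 had 2 probe sets and every other gene had 1. The rule also takes in SLC2A4RG, which encodes a transcription regulator, the antisense gene SLC67A1-AS and the pseudogene SLC26A10P, none of which is a carrier. Another 4 probe sets that carry an SLC symbol beside further symbols were left out. The study measured total RNA of 2 human breast cancer cell lines on Affymetrix HG-Focus arrays, to ask what HSD17B14, a 17-beta-hydroxysteroid dehydrogenase, changes in them. The groups were ZR75-1 cells (ER-positive by the labels) given an HSD17B14 plasmid, ZR75-1 cells given an equal amount of the vector lacking the insert, SKBR3 cells (ER-negative by the labels) given the HSD17B14 plasmid, and SKBR3 cells given the vector, with 2 arrays each. The medium had no phenol red and held 4% serum. Cells were seeded 24 h ahead of transfection by the FuGene-6 reagent, and RNA was taken 48 h later. Nothing says that the duplicates were separate cultures, so a p-value here reflects spread among arrays that may be technical, and the number of arrays limits the precision.

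Solute carriers move amino acids, sugars, ions, nucleotides, metals and vitamins across the plasma membrane and the membranes of organelles. Most are numbered by family, and members of a family usually share a type of cargo and a fold. Some work as pairs: SLC3A2 is the heavy chain that brings light chains such as SLC7A5 and SLC7A11 to the cell surface. The SLC25 family and the uncoupling proteins lie in the inner mitochondrial membrane, where the adenine nucleotide carriers SLC25A4 and SLC25A5 exchange ADP for ATP. UCP1 lets protons leak back in brown fat and produces heat, whereas UCP2 is found in many tissues and its transport activity is less settled. SLC39A6, also called LIV-1, is a zinc importer known as an estrogen-responsive gene in breast cancer.

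HSD17B14 signals were 107.5 and 135.3 with the plasmid, against 17.8 and 2.1 with the vector, in ZR75-1, and 650.7 and 743.6 against 2.0 and 4.2 in the SKBR3 arrays. The arrays labelled SKBR3 carried ERBB2 signals of 25.9 to 46.8, lower than the 95.9 to 226 on the ZR75-1 arrays. SKBR3 is, however, known for amplified ERBB2. GRB7 and STARD3, also listed as markers of a HER2-amplified line, overlapped between the lines. GRB7 lay at 4.1 to 14.9 on the SKBR3 arrays and at 8.9 to 67.7 in ZR75-1. STARD3 tended the other way, at 27.5 to 36.4 on the SKBR3 arrays and 24.8 to 30.3 in ZR75-1. The cells of the SKBR3 arrays are called SKBR3-labelled below. ESR1 was 194.5 to 341.6 in ZR75-1 and 14.9 to 24.6 in the SKBR3-labelled cells. The summed signal of 6 luminal epithelial markers was 16576 to 19743 in ZR75-1, against 4678 to 6319 in the SKBR3-labelled cells. The actin 3'/5' signal ratio, a measure of RNA integrity, was 2.83 and 2.66 with HSD17B14 and 2.03 and 2.02 with the vector in ZR75-1, and 2.28 and 3.09 against 3.603 and 2.996 in the SKBR3-labelled cells. Bacillus spike-in controls were brighter on 3 arrays, the replicate 2 arrays of every group but the ZR75-1 vector. The signals of fibroblast, leukocyte and endothelial marker genes stayed low, with summed values of at most 73.9, 42.5 and 27.8.

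Of the 174 probe sets, 114 (65.5%) passed the filter on low values and were tested, against 71.5% of all probe sets. The filter asked for a signal above the array's own 40th percentile on at least 2 arrays. The highest of these percentiles, 17.6, was used as a common floor, and a fold is given as a bound where every array of a group lay under it. On all 8 arrays 50 members (28.7%) lay above it, against 40.7% of all probe sets, and 51 members lay above it on no array. Metal ion carriers were most often measurable, with 8 of 12 above the floor on every array, followed by nucleoside and nucleotide sugar carriers with 7 of 11 and mitochondrial carriers with 10 of 17. Among the 15 carriers of monocarboxylates and other organic acids, SLC17A5, the lysosomal sialic acid exporter, was the 1 member above the floor on all arrays. Amino acid carriers had 8 of 35 there, sugar carriers 7 of 21, inorganic ion and pH carriers 4 of 31, and organic ion, peptide and bile acid carriers 2 of 17. Vitamin, choline and lipid carriers had 1 of 8 and the remaining families 2 of 7. These role groups follow the family number, so not every member carries the cargo of its group. For example, the creatine carrier SLC6A8 and the serotonin carrier SLC6A4 fall with amino acids. The multivitamin carrier SLC5A6 and the regulator SLC2A4RG fall with sugars, and the pseudogene SLC26A10P with inorganic ions.

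UCP2 was lower with the HSD17B14 plasmid. In ZR75-1 its signals were 267.6 and 243.7 with HSD17B14, against 911.8 and 817.5 with the vector. The SKBR3-labelled cells had 204.9 and 241.2 with HSD17B14, against 401 and 289.6 with the vector. Both HSD17B14 arrays lay below both vector arrays in each line, and the ZR75-1 vector arrays stood apart as the highest of all 8. In ZR75-1 UCP2 fell 3.38-fold, by 1.76 on the log2 scale (SE 0.18, limma adjusted p = 0.00181). Whether every cell had less or only the transfected cells had less cannot be told apart in RNA of the whole culture. For the SKBR3-labelled cells the log2 difference was -0.62 ± 0.18 (SE, limma adjusted p = 0.227) and did not pass the threshold of 0.05. Over both lines together (4 arrays against 4), UCP2 fell by 1.19 on the log2 scale (SE 0.12, limma adjusted p = 4.19e-04). The difference between the lines' effects was -1.14 (95% interval -1.69 to -0.59), with a limma adjusted p of 0.0804 that missed the threshold.

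The fall of UCP2 in ZR75-1 was a call in 17 of 18 alternative settings, with log2 differences between -2.15 and -1.55. It did not pass when the prior variance was not allowed to depend on the mean signal (limma adjusted p = 0.0815). The actin 3'/5' ratio was higher on both ZR75-1 HSD17B14 arrays than on both vector arrays, and with that ratio as a covariate the log2 difference was -2.15 (limma adjusted p = 0.0273). Among ZR75-1 arrays of low spike-in level the log2 difference was -1.69, from 1 HSD17B14 array against 2 vector arrays. Between SKBR3-labelled arrays it was -0.26 at the high level and -0.97 at the low level, each from 1 array against 1 array. Its call there came only without vector replicate 2 (log2 -0.85, limma adjusted p = 0.0416), a fit that leaves 1 vector array and assumes that it varies like the other groups.

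UCP2 lies at chr11:73974672-73983202 in GRCh38.p14, and UCP3, the muscle paralog, at chr11:74000277-74009085. UCP3 signals were 18.5 and 2.6 with HSD17B14, against 1.3 and 22 with the vector, in ZR75-1. The SKBR3-labelled cells had 10 and 11.8 with HSD17B14, against 2.4 and 8.2 with the vector. Its arrays overlapped in ZR75-1, and the SKBR3-labelled arrays all lay under the floor, so no change in UCP3 was detectable. UCP1 was not tested, with signals of 1.8 to 12.7. The 250 bases upstream of the UCP2 start that RefSeq lists, at chr11:73983203-73983452 on the minus strand, are shown because UCP2 is the member that passed the test for the plasmid. Capitals mark the GC box GGGCGG on either strand, which was found 1 time.
UCP2: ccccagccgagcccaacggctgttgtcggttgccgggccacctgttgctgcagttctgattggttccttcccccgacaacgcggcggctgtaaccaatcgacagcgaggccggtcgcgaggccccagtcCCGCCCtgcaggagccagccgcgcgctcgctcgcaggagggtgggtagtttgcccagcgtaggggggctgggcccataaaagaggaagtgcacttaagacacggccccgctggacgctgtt
The E-box CACGTG and the amino acid response element core TGATGNAA were also searched on both strands, and neither set of letters occurs in this window. Of 27305 promoter windows of the same length in the RefSeq table, 42.3% hold GGGCGG, 6.49% CACGTG and 3.19% TGATGNAA. Among the 143 members' genes with a window these shares were 54.5%, 7.69% and 4.9%.

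**Figure D1:**
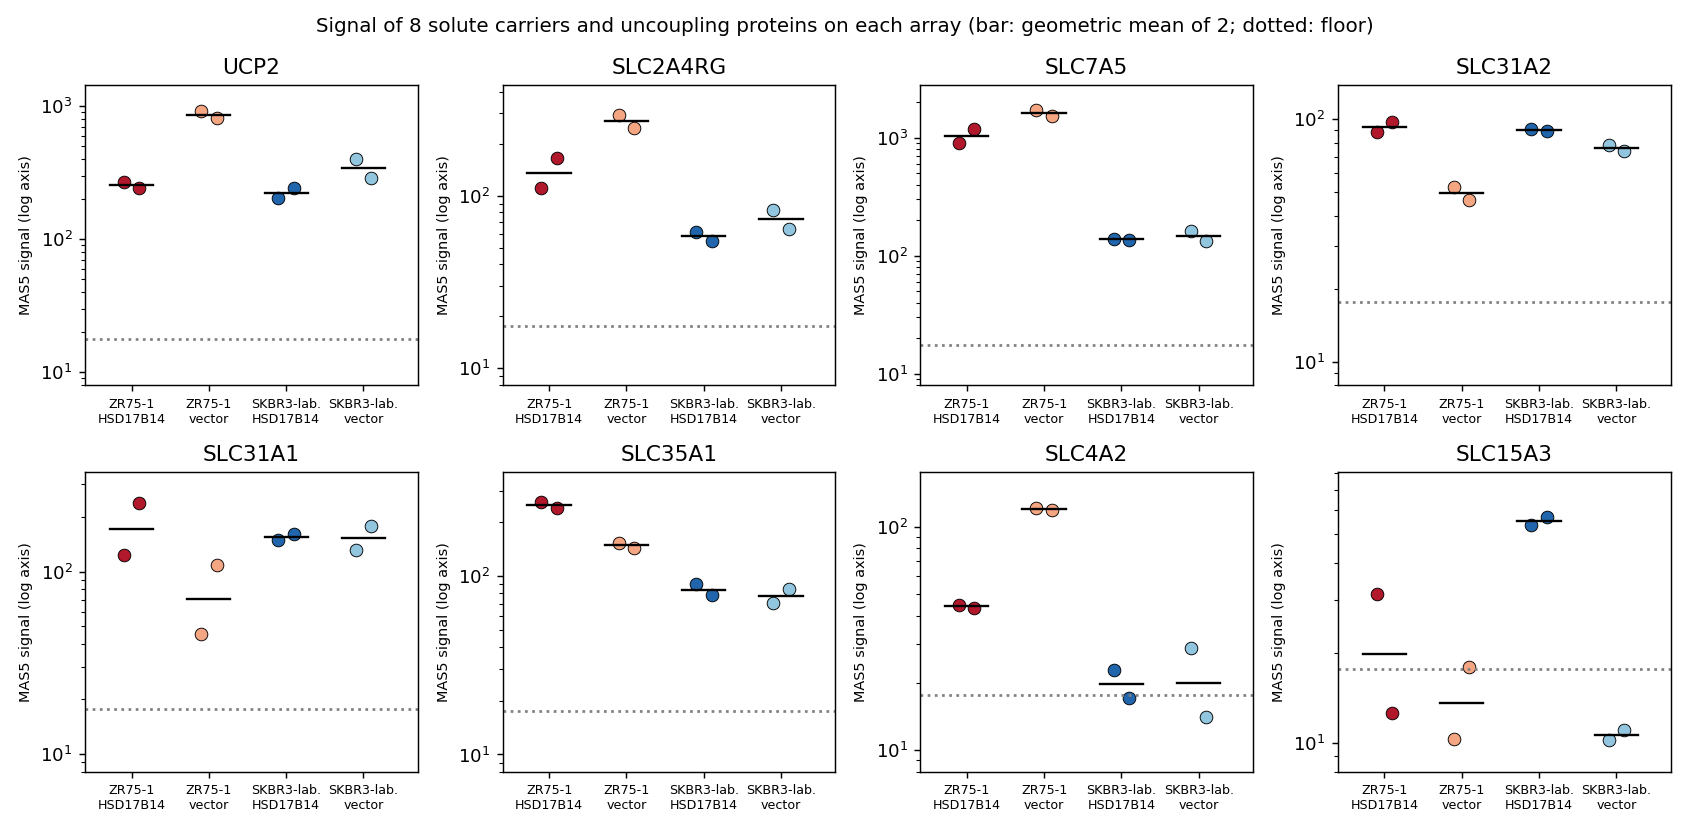
MAS5 signals on each array, on a log axis, for members named in the plasmid comparisons, with HSD17B14 arrays left of vector arrays in each line. UCP2 lay at 267.6 and 243.7 with HSD17B14, against 911.8 and 817.5 with the vector, in ZR75-1.

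Apart from UCP2, no member passed the test for the plasmid in ZR75-1: of 114 tested, 0 rose, 1 fell and 113 did not pass. Over all 6251 tested probe sets 0.736% rose and 0.784% fell, together 1.52%. At an unadjusted p under 0.05, 5 members were higher (4.39%) and 7 lower (6.14%), against 8.35% and 9.61% of all tested probe sets. The median log2 difference of the members was -0.17, against -0.04 for all tested probe sets. With arrays centred on their medians these became 0.03 for the members and 0.16 for all probe sets, so the sign of the members' median rests on the scaling. Both HSD17B14 arrays lay above both vector arrays for 15 members (13.2%) and below them for 31 (27.2%), against 20.7% and 26.3% of all tested probe sets.

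Both copper carriers had higher signals with HSD17B14 in ZR75-1 without passing the test. SLC31A2, a copper carrier of endosomes and lysosomes, had signals of 88.8 and 97.7 with HSD17B14, against 52.5 and 46.6 with the vector (log2 0.91 ± 0.23, limma adjusted p = 0.0699). SLC31A1, the high-affinity copper importer, had 122.8 and 238 with HSD17B14, against 45.6 and 108.4 with the vector (log2 1.28 ± 0.38, limma adjusted p = 0.106). The arrays did not overlap for either gene. In the SKBR3-labelled cells SLC31A1 had 148.3 and 160.8 with HSD17B14, against 131.3 and 178.2 with the vector, which overlap. There SLC31A2 had 90.7 and 89.4 with HSD17B14, against 78.3 and 73.8 with the vector, higher without overlap but not called. The metal ion group as a whole had 5 of 9 tested members higher (55.6%) and 1 lower (11.1%) with no overlap between the ZR75-1 arrays, against 20.7% and 26.3% of all tested probe sets, and a median log2 difference of 0.24.

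Nucleotide sugar carriers feed the Golgi with substrates for glycosylation. SLC35A1, the CMP-sialic acid carrier, had 258.9 and 242.3 with HSD17B14, against 153.9 and 144.2 with the vector, in ZR75-1 (log2 0.75 ± 0.19, limma adjusted p = 0.0719). SLC35A3, the UDP-N-acetylglucosamine carrier, had 137.1 and 224.1 with HSD17B14, against 122.2 and 93.9 with the vector (log2 0.71 ± 0.28, limma adjusted p = 0.206). Both HSD17B14 arrays were the higher ones for each gene, and neither difference passed. Other members of the family went the other way without overlap. SLC35A2 had 89.1 and 64.2 with HSD17B14, against 113.5 and 112.9 with the vector, and SLC35B1 had 435 and 412.8, against 514.6 and 480. The nucleoside and nucleotide sugar group had 4 of 10 tested members higher (40%) and 4 lower (40%) without overlap in ZR75-1. Of all tested probe sets these were 20.7% and 26.3%.

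On the lower side in ZR75-1, SLC7A5, the light chain of the large neutral amino acid exchanger, had 901.8 and 1183.5 with HSD17B14, against 1718.5 and 1535.5 with the vector (log2 -0.65 ± 0.17, limma adjusted p = 0.0723). In the SKBR3-labelled cells its log2 difference was -0.09 (95% interval -0.45 to 0.28). SLC4A2, a chloride and bicarbonate exchanger, had 44.8 and 43.5 with HSD17B14, against 121.8 and 119.3 with the vector, in ZR75-1 (log2 -1.45 ± 0.41, limma adjusted p = 0.0927). For both genes the ZR75-1 arrays of the groups did not overlap. The regulator SLC2A4RG had 111.6 and 165.9 with HSD17B14, against 293.1 and 248.1 with the vector (log2 -0.99 ± 0.24, limma adjusted p = 0.0646). SLC75A1 and SLC10A3 had log2 differences of -1.02 ± 0.34 and -1.05 ± 0.37 (limma adjusted p = 0.148 and 0.164). SLC6A8 had 25.9 and 28 with HSD17B14, against 93.6 and 94.6 with the vector, without overlap (log2 -1.80 ± 0.83, limma adjusted p = 0.284). Amino acid carriers had 1 of 22 members higher (4.55%) and 8 lower (36.4%) with no overlap between the ZR75-1 arrays, against 20.7% and 26.3% of all tested probe sets, and a median log2 difference of -0.30. None of these members passed the test.

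**Figure D2:**
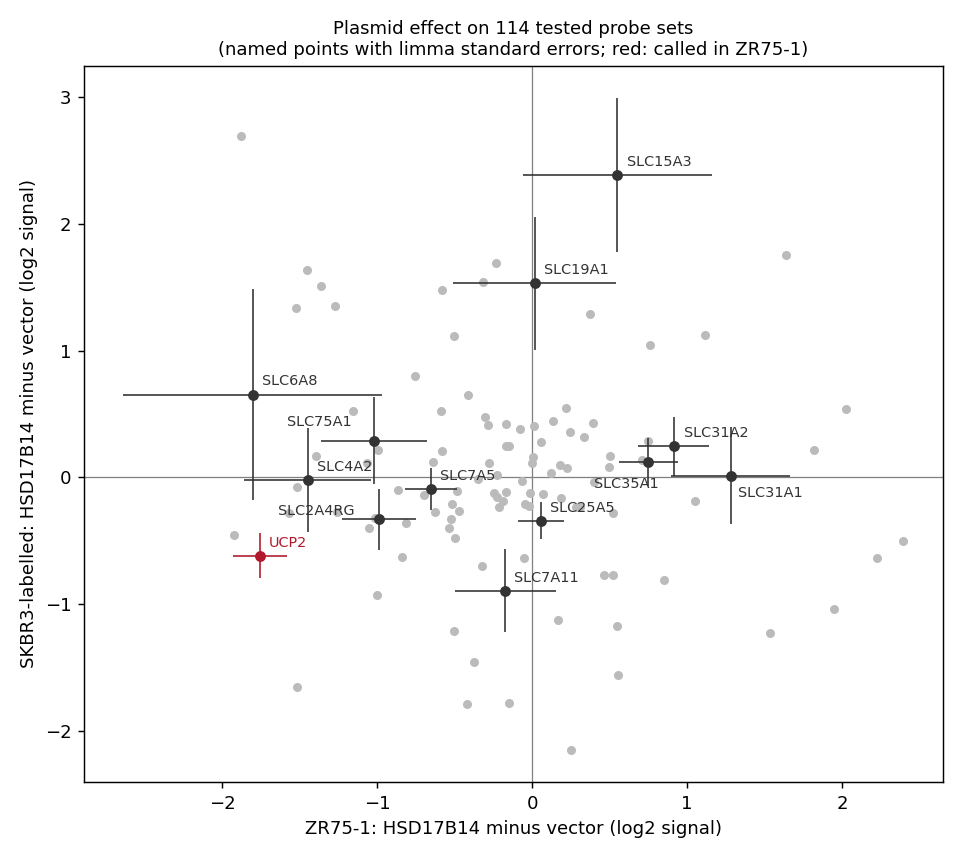
Log2 difference between HSD17B14 and vector for the 114 tested members, in ZR75-1 on the x axis and in SKBR3-labelled cells on the y axis, with limma standard errors on named points. UCP2, drawn in red, is the 1 member called in ZR75-1, at -1.76 there and -0.62 in the SKBR3-labelled cells.

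In the SKBR3-labelled cells 0 of 114 members rose and 0 fell by limma, while 0.944% of all tested probe sets rose and 0.048% fell, together 0.992%. At an unadjusted p under 0.05, 3 members were higher (2.63%) and 4 lower (3.51%), against 4.96% and 3.82% of all tested probe sets. The median log2 difference was -0.03 for the members and -0.01 for all tested probe sets. Arrays did not overlap for 21 members on the higher side (18.4%) and 20 on the lower side (17.5%), against 19.5% and 20.6% of all tested probe sets. SLC15A3, a lysosomal carrier of histidine and small peptides, had signals of 53.6 and 57 with HSD17B14, against 10.2 and 11 with the vector. Both vector arrays lay under the floor, which makes the gene at least 3.14-fold higher with HSD17B14, but the difference did not pass (limma adjusted p = 0.148). In ZR75-1 SLC15A3 had 31.4 and 12.6 with HSD17B14, against 10.3 and 17.9 with the vector, which overlap.

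SLC7A11, the cystine and glutamate exchanger, had 72.6 and 62 with HSD17B14, against 144.8 and 107.2 with the vector, in the SKBR3-labelled cells (log2 -0.89 ± 0.33, limma adjusted p = 0.440). SLC25A5 had 1484.2 and 1534.5 with HSD17B14, against 1974.6 and 1849.7 with the vector (log2 -0.34 ± 0.15, limma adjusted p = 0.532). For both genes the HSD17B14 arrays lay below the vector arrays without overlap, and neither difference passed. SLC19A1, the reduced folate carrier, had 9.6 and 16.1 with HSD17B14, against 3.7 and 5 with the vector, all under the floor, so no fold is given.

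Averaged over both lines, 0 members rose and 1, UCP2, fell, against 1.22% and 0.288%, together 1.5%, of all tested probe sets. At an unadjusted p under 0.05, 4 members were higher (3.51%) and 8 lower (7.02%), against 6.83% and 7.33% of all tested probe sets. For the difference between the lines' effects, 0 members passed by limma, against 0.624% of all tested probe sets (0.064% above 0 and 0.56% below 0), while at an unadjusted p under 0.05 there were 3 members above 0 (2.63%) and 6 below 0 (5.26%), against 5.78% and 7.26%. After UCP2, the nucleoside carrier SLC29A1 had the smallest p of the members. Its signals were 37.6 and 34.8 with HSD17B14, against 55.4 and 53.3 with the vector, in ZR75-1. The SKBR3-labelled cells had 112.4 and 84.7 with HSD17B14, against 66.9 and 68.8 with the vector. The arrays did not overlap in either line and the directions were opposite, but the difference did not pass (log2 -1.11 ± 0.38, limma adjusted p = 0.262). These averaged effects and differences use the same arrays as the single-line effects. Among 54 tested probe sets of other membrane transporters (ABC pumps, ion-pumping ATPases, aquaporins, organic anion carriers and mitochondrial porins), limma called 0 in every plasmid comparison. At an unadjusted p under 0.05 there were 8 higher (14.8%) and 7 lower (13%) in ZR75-1, against 8.35% and 9.61% of all tested probe sets. In the SKBR3-labelled cells there were 2 higher (3.7%) and 0 lower, against 4.96% and 3.82%.

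The lines themselves differed in many carriers. With HSD17B14, 25 members were higher and 14 lower in ZR75-1 than in the SKBR3-labelled cells, or 21.9% and 12.3% of the 114 tested, against 15.1% and 18.1%, together 33.2%, of all tested probe sets. With the vector, 30 were higher and 13 lower, or 26.3% and 11.4%, against 19.6% and 20.7%, together 40.2%. With HSD17B14 the arrays of the lines did not overlap for 49 members on the higher side (43%) and 27 on the lower side (23.7%). Of all tested probe sets 33.5% and 37.3% did not overlap. With the vector 44 members (38.6%) and 26 (22.8%) did not overlap, against 32.8% and 33.4% of all tested probe sets. The members' median log2 difference was 0.33 in each arm, against -0.06 with HSD17B14 and -0.04 with the vector for all tested probe sets. The arms share no arrays, but their tests come from the same fit and use the same residual variance of a probe set. Called the same way in both arms were 29 members, 22 higher and 7 lower. This is 25.4% of the members tested, against 26.3% of all tested probe sets. No member was called in opposite directions. All 4 ZR75-1 arrays lay above all 4 SKBR3-labelled arrays for 31 members and below them for 15, together 40.4%, against 42.5% of all tested probe sets. The actin 3'/5' ratio was lower on the ZR75-1 vector arrays than on the SKBR3-labelled vector arrays, and with it as a covariate 11 members (9.65%) were called with the vector and 9 (7.89%) in both arms, against 9.13% and 8.41% of all tested probe sets. The 54 other transporters had 10 higher and 11 lower with HSD17B14 (together 38.9%), and 15 higher and 13 lower with the vector (51.9%). Their median log2 differences were 0.24 with HSD17B14 and 0.20 with the vector.

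**Figure D3:**
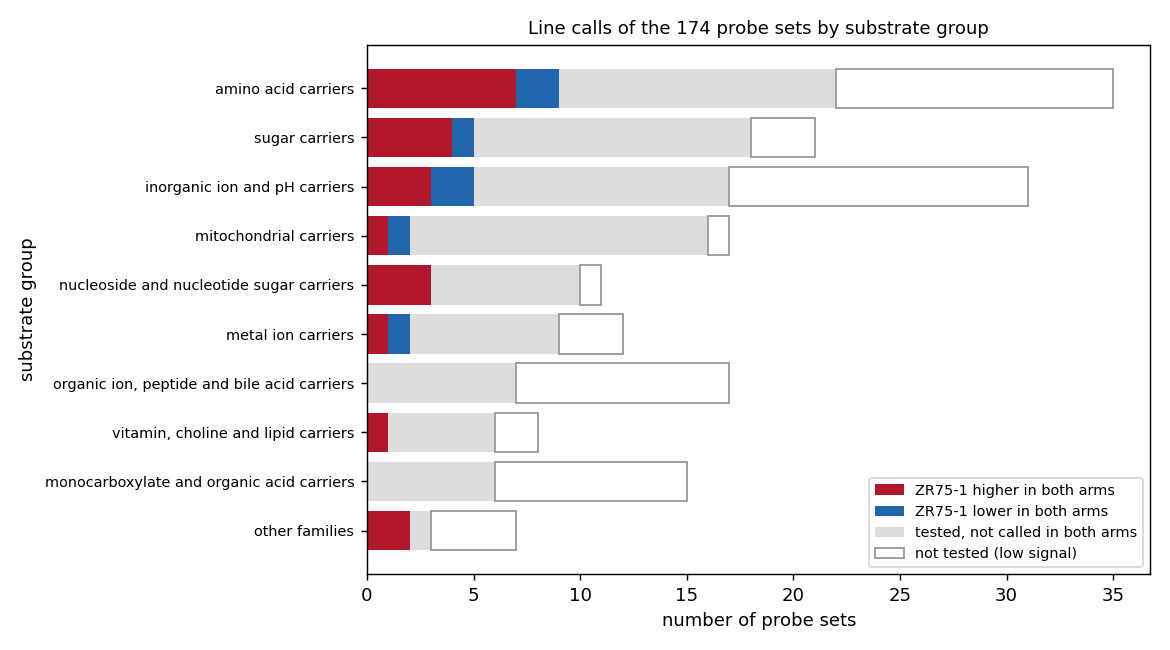
Number of probe sets in each role group, split into those higher in ZR75-1 in both arms, lower in both arms, tested without a call in both arms, and not tested for low signal. Of 22 tested amino acid carriers 7 were higher and 2 lower in both arms (40.9%, against 26.3% of all tested probe sets). In the vector arm 40.9% of these carriers were called, against 40.2% of all tested probe sets. The 7 tested organic ion, peptide and bile acid carriers and the 6 tested monocarboxylate and organic acid carriers held 0.

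**Figure D4:**
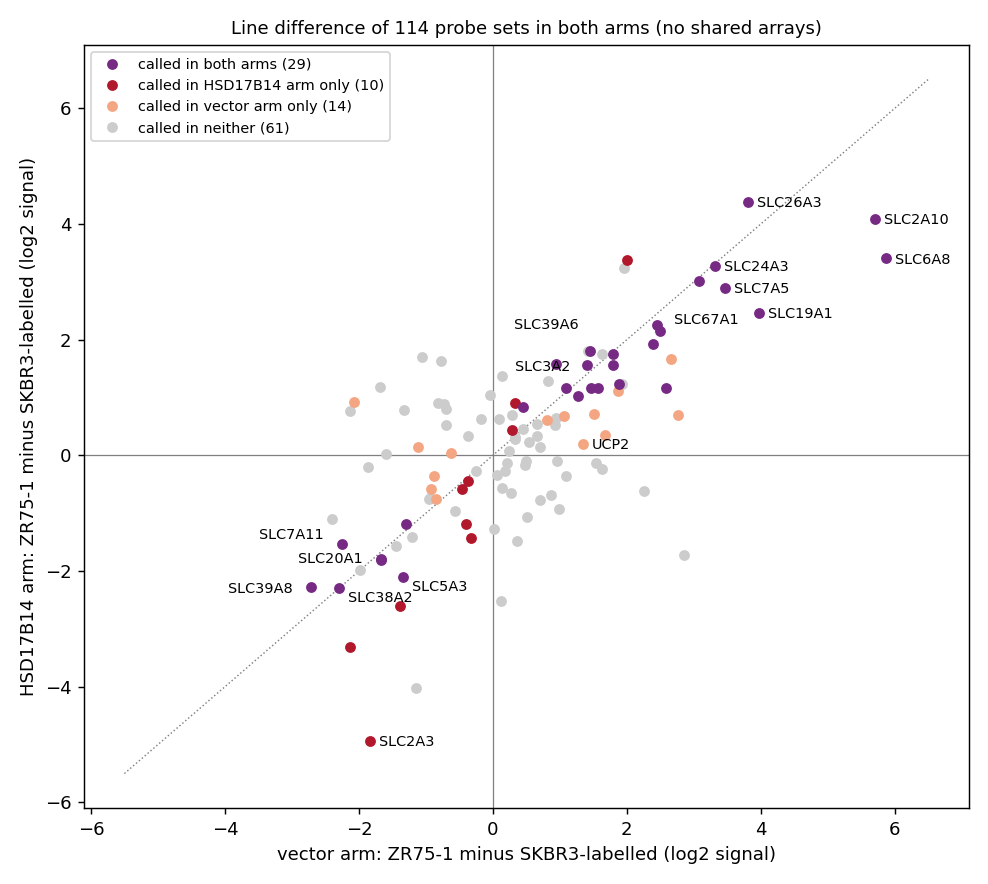
Log2 difference between ZR75-1 and SKBR3-labelled cells for the 114 tested members, with the vector on the x axis and with HSD17B14 on the y axis. The 29 members called in both arms are drawn in purple, 22 above 0 and 7 below 0.

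Amino acid carriers held 7 members that were higher and 2 that were lower in ZR75-1 in both arms, of 22 tested. Together these were 40.9%, against 26.3% of all tested probe sets. By arm, 54.5% of the amino acid carriers were called with HSD17B14, against 33.2% of all tested probe sets. With the vector the shares were alike, at 40.9% and 40.2%. SLC7A5 had 901.8 and 1183.5 with HSD17B14 and 1718.5 and 1535.5 with the vector in ZR75-1, against 139.9 and 137.2 with HSD17B14 and 161.4 and 134.3 with the vector in the SKBR3-labelled cells. Every ZR75-1 array was far above every SKBR3-labelled array, and SLC7A5 was 7.46-fold higher with HSD17B14 (limma adjusted p = 2.24e-07), with a log2 difference of 3.46 ± 0.17 with the vector (limma adjusted p = 4.59e-08). Its heavy chain SLC3A2 had 295 and 400 with HSD17B14 and 329.3 and 263.4 with the vector in ZR75-1, against 119 and 114.3 with HSD17B14 and 100.9 and 121.3 with the vector in the SKBR3-labelled cells. SLC3A2 was 2.95-fold higher in ZR75-1 with HSD17B14 and 2.66-fold higher with the vector (limma adjusted p = 9.17e-05 and 1.55e-04). The neutral amino acid exchangers SLC1A5 and SLC1A4, the glutamate carrier SLC1A1, the light chain SLC7A6 and the creatine carrier SLC6A8 were also higher in both arms. For SLC1A4 the SKBR3-labelled signals were 8.2 to 35, with 1 of 4 arrays above the floor. Its call held in 13 of 18 alternative settings with HSD17B14 and in 18 with the vector. SLC6A8 had 25.9 and 28 with HSD17B14 and 93.6 and 94.6 with the vector in ZR75-1. The SKBR3-labelled arrays lay at 0.6 to 2.8, under the floor, which makes SLC6A8 at least 2.86-fold higher over both arms. The ZR75-1 signals with HSD17B14 lay nearer the floor than those with the vector.

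SLC38A2, a sodium-coupled neutral amino acid carrier, went the other way. Its signals were 153 and 100.2 with HSD17B14 and 123.0 and 78.3 with the vector in ZR75-1, against 613.3 and 593.1 with HSD17B14 and 460.1 and 506.6 with the vector in the SKBR3-labelled cells. All ZR75-1 arrays lay below all SKBR3-labelled arrays, and SLC38A2 was lower in ZR75-1 by 4.87-fold with HSD17B14 and 4.92-fold with the vector (limma adjusted p = 2.15e-05 and 1.46e-05). SLC7A11 was likewise lower, at 20.3 to 28.9 in ZR75-1 and 62 to 144.8 in the SKBR3-labelled cells (2.90-fold with HSD17B14, limma adjusted p = 0.00345, and 4.77-fold with the vector, limma adjusted p = 2.02e-04). SLC43A1, a carrier of branched-chain amino acids, was above the floor on none of the ZR75-1 arrays (2.5 to 15.8) and on all 4 SKBR3-labelled arrays (30.3 to 47.8). It passed with HSD17B14 (at least 2.16-fold lower in ZR75-1, limma adjusted p = 0.0270) and not with the vector (limma adjusted p = 0.199). SLC38A1 differed little, at 542.8 to 584.3 in ZR75-1 and 393.7 to 516.9 in the SKBR3-labelled cells, and passed with HSD17B14 only.

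The upstream windows of SLC7A5, its partner SLC3A2 and SLC38A2 are shown because these amino acid carriers separated the lines in both arms and in opposite directions. They are the 250 bases before the start that the RefSeq promoter table gives first for each gene, in GRCh38.p14: SLC7A5 at chr16:87869508-87869757 on the minus strand, SLC3A2 at chr11:62881449-62881698 on the plus strand and SLC38A2 at chr12:46372774-46373023 on the minus strand. The SLC3A2 window lies inside the gene, downstream of another listed start. Capitals mark CACGTG and GGGCGG on either strand.
SLC7A5: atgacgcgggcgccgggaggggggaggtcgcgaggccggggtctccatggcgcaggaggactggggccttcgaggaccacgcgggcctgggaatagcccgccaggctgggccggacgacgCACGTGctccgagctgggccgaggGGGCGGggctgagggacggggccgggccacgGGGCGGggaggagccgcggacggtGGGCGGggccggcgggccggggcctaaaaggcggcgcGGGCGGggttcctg
SLC3A2: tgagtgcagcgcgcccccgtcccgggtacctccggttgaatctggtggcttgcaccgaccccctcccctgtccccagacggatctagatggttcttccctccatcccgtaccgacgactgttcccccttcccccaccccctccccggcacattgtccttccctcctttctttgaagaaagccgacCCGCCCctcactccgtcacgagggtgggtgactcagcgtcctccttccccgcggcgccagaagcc
SLC38A2: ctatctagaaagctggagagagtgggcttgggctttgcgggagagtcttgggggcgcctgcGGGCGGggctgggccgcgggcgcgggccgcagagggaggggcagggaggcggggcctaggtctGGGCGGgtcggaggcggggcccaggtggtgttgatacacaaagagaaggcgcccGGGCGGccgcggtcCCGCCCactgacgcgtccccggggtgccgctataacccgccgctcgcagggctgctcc
SLC7A5 holds CACGTG 1 time and GGGCGG 4 times, SLC3A2 holds GGGCGG 1 time and SLC38A2 holds it 4 times. TGATGNAA does not occur in these windows. These matches are letters only, and no binding was measured.

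Among the 9 tested metal ion carriers, SLC39A6 was higher and SLC39A8 lower in ZR75-1 in both arms (22.2%, against 26.3% of all tested probe sets). SLC39A6 had 3214.5 and 3117.3 with HSD17B14 and 3130.5 and 2464.1 with the vector in ZR75-1, against 1002.1 and 819.9 with HSD17B14 and 982.3 and 1052.6 with the vector in the SKBR3-labelled cells. It was 3.49-fold higher with HSD17B14 and 2.73-fold higher with the vector (limma adjusted p = 6.94e-06 and 2.75e-05). SLC39A8, an importer of zinc and manganese, had 33.8 and 38.1 with HSD17B14 and 28.5 and 25.9 with the vector in ZR75-1, against 177.9 and 170.8 with HSD17B14 and 187.7 and 170 with the vector in the SKBR3-labelled cells. It was 4.86-fold lower with HSD17B14 and 6.57-fold lower with the vector (limma adjusted p = 1.87e-05 and 3.50e-06). The 2 zinc importers thus had opposite orders between the lines with no overlap on any array.

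Of 18 tested members of the sugar group, 4 were higher and 1 lower in both arms (27.8%, against 26.3% of all tested probe sets). SLC2A10, a facilitative glucose carrier, lay at 117.8 to 223.2 in ZR75-1 and at 2.2 to 12.6 in the SKBR3-labelled cells, at least 9.14-fold higher over both arms (limma adjusted p = 2.36e-04 with HSD17B14 and 1.53e-05 with the vector). SLC50A1, a sugar uniporter, the multivitamin carrier SLC5A6 and the regulator SLC2A4RG were higher as well, by 3.20-fold, 2.58-fold and 2.94-fold over both arms. The myo-inositol carrier SLC5A3 was 3.29-fold lower, at 25.6 to 50.8 in ZR75-1 and 88 to 140.6 in the SKBR3-labelled cells. SLC2A1, the widespread glucose carrier, had 276.6 and 242.5 with HSD17B14 and 233.6 and 194.2 with the vector in ZR75-1, against 328.4 and 338.5 with HSD17B14 and 458.5 and 336.2 with the vector in the SKBR3-labelled cells. All ZR75-1 arrays were the lower ones, and the difference did not pass with HSD17B14 (limma adjusted p = 0.147) but did with the vector (1.84-fold lower, limma adjusted p = 0.00208).

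**Figure D5:**
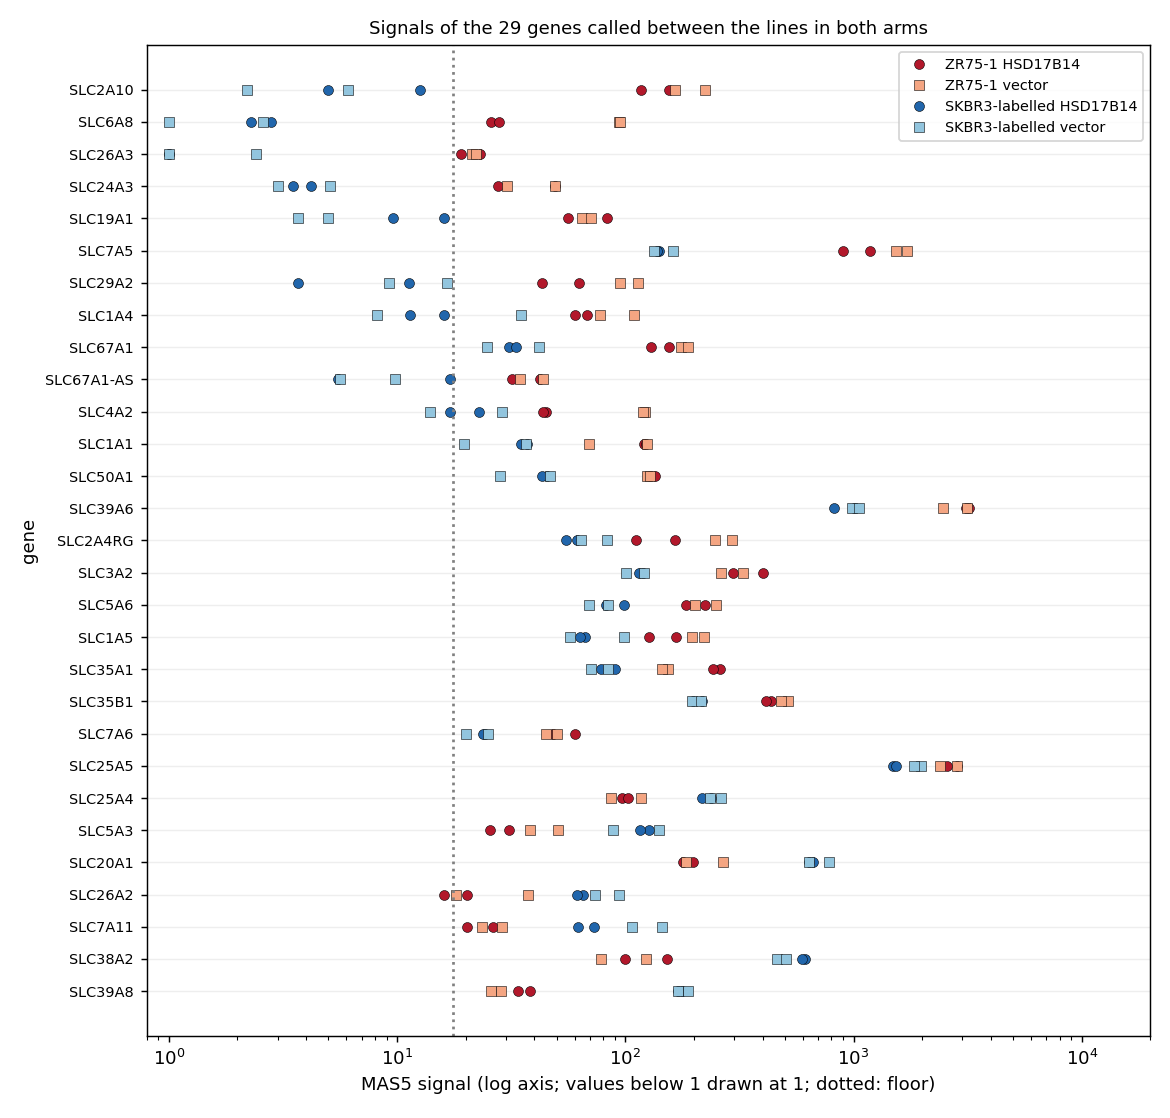
MAS5 signals on every array, on a log axis, for the 29 genes called between the lines in both arms, with ZR75-1 in red and orange and SKBR3-labelled cells in blue. The dotted line is the common floor of 17.6, and SLC2A10, SLC6A8, SLC26A3, SLC24A3, SLC19A1, SLC29A2 and SLC67A1-AS lay under it on every SKBR3-labelled array.

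Mitochondrial carriers had 1 of 16 tested members higher and 1 lower in both arms (12.5%, against 26.3% of all tested probe sets). These were the adenine nucleotide carriers. SLC25A5 had 2848.5 and 2572.1 with HSD17B14 and 2394 and 2829.4 with the vector in ZR75-1, against 1484.2 and 1534.5 with HSD17B14 and 1974.6 and 1849.7 with the vector in the SKBR3-labelled cells. SLC25A4 had 97.1 and 102.7 with HSD17B14 and 117.5 and 86.4 with the vector in ZR75-1, against 238.3 and 217 with HSD17B14 and 234.5 and 261.6 with the vector in the SKBR3-labelled cells. SLC25A5 was 1.79-fold higher with HSD17B14 and 1.36-fold higher with the vector (limma adjusted p = 9.15e-04 and 0.0303), and SLC25A4 was 2.28-fold and 2.46-fold lower (limma adjusted p = 5.44e-04 and 2.30e-04). The genes are close paralogs, and how far their probes bind each other's transcripts was not tested. Between the lines UCP2 had a ratio of 1.15 with HSD17B14, which did not pass (limma adjusted p = 0.430), and was 2.53-fold higher in ZR75-1 with the vector (limma adjusted p = 9.80e-05).

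Inorganic ion and pH carriers had 3 of 17 members higher and 2 lower in both arms (29.4%, against 26.3% of all tested probe sets). SLC20A1, a phosphate importer, lay at 178.3 to 267.9 in ZR75-1 and 636.1 to 783.6 in the SKBR3-labelled cells, 3.32-fold lower over both arms, and the sulfate carrier SLC26A2 at 16.1 to 37.6 and 61.2 to 94.3, 3.34-fold lower with 1 of 4 ZR75-1 arrays under the floor. SLC4A2 lay at 43.5 to 121.8 in ZR75-1 and at 14 to 28.7 in the SKBR3-labelled cells, where 2 of 4 arrays were under the floor. Its call with HSD17B14 (limma adjusted p = 0.0488) held in 8 of 18 alternative settings, and its call with the vector in 17. SLC24A3, a sodium, calcium and potassium exchanger, was at least 2.15-fold higher. SLC26A3, a chloride and bicarbonate exchanger of the intestine, was at least 1.21-fold higher from ZR75-1 signals of 19 to 23, close to the floor, and its call held in 11 of 17 alternative settings with HSD17B14 and in 8 with the vector.

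Nucleoside and nucleotide sugar carriers had 3 of 10 higher and 0 lower in both arms (30%, against 26.3% of all tested probe sets). The 3 were SLC29A2, a nucleoside carrier (at least 4.18-fold), SLC35A1 (2.40-fold) and SLC35B1, a carrier of the endoplasmic reticulum (2.22-fold). SLC29A1, the other equilibrative nucleoside carrier, was 1.84-fold lower over both arms and passed with HSD17B14 only. Of the vitamin, choline and lipid group, SLC19A1 was higher in both arms, at 56.2 to 83.4 in ZR75-1 and 3.7 to 16.1 in the SKBR3-labelled cells, at least 3.87-fold. SLC67A1, a proton-driven organic cation carrier of the imprinted region on chromosome 11, was 4.99-fold higher, and the antisense gene SLC67A1-AS at least 2.15-fold higher. The call of SLC67A1-AS held in 6 of 17 alternative settings with HSD17B14 and in 13 with the vector. In the monocarboxylate group (6 tested) and the organic ion, peptide and bile acid group (7 tested), no member was called in both arms.

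Above the floor on all 4 ZR75-1 arrays and on no SKBR3-labelled array were 7 members (6.14% of those tested, against 2.35% of all tested probe sets): SLC6A8, SLC29A2, SLC67A1-AS, SLC26A3, SLC19A1, SLC2A10 and SLC24A3. The opposite pattern held for 1 member, SLC43A1 (0.877%, against 2.78%). Called with HSD17B14 alone were 10 of the 114 tested members, against 426 of all 6251 tested probe sets. With the vector alone the counts were 14 and 868. Whether the line difference itself changed with the plasmid is the difference between effects given above, which no member passed. The 60 untested members include the vesicular monoamine carriers SLC18A1 and SLC18A2, the serotonin carrier SLC6A4, the liver bile acid importer SLC10A1 and the liver and muscle glucose carriers SLC2A2 and SLC2A4.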

How the data were processed

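The authors deposited 1 signal intensity per probe set and array, a MAS5 value, per the submitters' processing notes (version not given there). The deposited table holds 8793 probe sets, of which 47 Affymetrix controls were left out. Intensity values below 1 were raised to 1 and log2 was taken. Testing needed a value above the array's 40th percentile on at least 2 arrays, which 6251 probe sets had. The 4 group means were fitted by limma 3.58.1 (R 4.3.3), with eBayes, a prior variance following the mean (7.39 prior and 4 residual degrees of freedom), Benjamini-Hochberg adjustment over all 6251 and calls at an adjusted p under 0.05. Values after ± are standard errors of the limma fit (n = 2 per group). Where every array of a group lay under 17.6, folds are bounds against it. The model was tested on simulated data. The members, role groups and tests were chosen with earlier results of these data known.

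The rule for naming took UCP1 to UCP3, called members, the 8 largest moderated t values per direction and plasmid comparison, members called between lines in both arms (12 per direction in full) and the 3 brightest per role group. Further genes in the text, such as untested examples, were picked after seeing their values. Some genes that the rule took are not described, among them SLC11A1, SLC6A12, SLC5A5 and SLC25A3. Alternatives were median centring, quantile normalization, a filter at the 60th percentile or none, adding 32 before log2, raising to the common floor, a constant prior variance, the replicate number, the spike-in level or the actin ratio in the model, and leaving out each array. Same-numbered arrays of a line deviated with a correlation of -0.04 in both lines, so numbers were not used as pairs. Gene coordinates and promoter windows come from RefSeq (GRCh38.p14). Python 3.11.15 with matplotlib 3.10.9 drew the figures.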

Additional observations from a re-analysis of the deposited data

How the results depend on the processing

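With log2 of the value plus 32, 8 members (7.02%) were called in ZR75-1, against 4.19% of all tested probe sets. They were SLC7A5, SLC4A2, SLC6A8, SLC35A1, SLC31A1, SLC31A2, UCP2 and SLC2A4RG. In SKBR3-labelled cells 1 was called (SLC15A3, 0.877%, against 1.41%). The averaged effect had 4 (3.51%, against 2.64%) and the difference 1 (0.877%, against 1.07%). Calls over all probe sets in ZR75-1 numbered 262, against 95 in the reported fit. Values raised to the common floor gave 3 members in ZR75-1 (2.63%, against 1.46% of all tested probe sets). They gave 2 in the averaged effect (1.75%, against 1.22%) and 1 in the difference (0.877%, against 0.448%). The prior not dependent on the mean gave 0 in ZR75-1 and 0 in the averaged effect, against 0.208% and 0.192% of all tested probe sets. There UCP2 had limma adjusted p values of 0.0815 and 0.0704. The replicate number as a block gave 3 calls in ZR75-1 (SLC31A1, UCP2, SLC2A4RG), 2.63% of the members against 2.99% of all tested probe sets. In the averaged effect that block gave 2 (SLC31A1, UCP2), 1.75% against 2.38%. Same-numbered arrays deviated with correlations of -0.04 and -0.04, which cannot settle whether the numbers mark a shared batch. In the SKBR3-labelled cells the spike-in controls were brighter on both replicate 2 arrays than on both replicate 1 arrays. The actin covariate left 11 line calls with the vector (9.65%, against 9.13% of all tested probe sets). With any single array left out, 1 array remained in its group. The members' median log2 difference then spanned -0.30 to -0.02 in ZR75-1, against -0.08 to -0.01 for all tested probe sets. Between lines with HSD17B14 this median spanned 0.32 to 0.47, against -0.09 to -0.04 for all tested probe sets. With the vector the spans were 0.29 to 0.49 and -0.11 to 0.03. Without SKBR3-labelled vector replicate 2 the calls were SLC4A2 and UCP2 in ZR75-1, UCP2 and SLC25A15 in the SKBR3-labelled cells, and SLC25A15 in the difference. Without vector replicate 1 UCP2 passed in the difference. The sign of UCP3 turned in ZR75-1 to -0.021 with the value plus 32 and -0.12 with the common floor, and in the averaged effect to -0.062 with the floor. Without single arrays UCP3 spanned -1.67 to 1.79 in ZR75-1, -0.19 to 1.54 in the averaged effect and -2.96 to 0.50 in the difference. SLC67A1-AS turned to -0.082 between lines with the vector under the actin covariate. The cause was not tested. Signals near the floor limit the folds.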
